A study of Mus musculus with 12 samples.

Results

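Sox10, Myrf, Erbb3, Bcas1, Ugt8a, Fa2h and Gal3st1 are genes of oligodendrocytes, the glial cells that wrap axons of the central nervous system in myelin. They were taken by symbol as regulators of that lineage and as enzymes of the galactolipids that fill its membrane, and all 7 were found among the 756 genes of the table. Each also passed the minimum mean of 20 normalized counts, so that 7 of the 695 tested genes are described here. Their lowest value in any mouse was 159 normalized counts, well above that minimum.

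Hippocampal RNA from 12 mice labelled male, 4 in each of 3 groups, was measured on a NanoString nCounter panel for mouse neuroinflammation, whose colour-coded probes bind transcripts and are counted without amplification. 5xFAD mice express mutant human genes of inherited Alzheimer's disease under the Thy1 promoter, which acts mainly in neurons, and they deposit amyloid early in life. The first group was 5xFAD mice that drank TPPU, an inhibitor of soluble epoxide hydrolase, at 3 mg/kg for 2.5 months from 2 months of age. The second was 5xFAD mice that drank the vehicle alone, 1% polyethylene glycol 400. The third was non-transgenic littermates on that vehicle, and no non-transgenic mice on TPPU were analysed here.

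Oligodendrocytes depend for their differentiation on the transcription factor Sox10, which switches on Myrf, the membrane-bound transcription factor that drives the genes of myelin. Their membrane owes much of its lipid to galactosylceramide and sulfatide, which are made from ceramide by Ugt8a and then Gal3st1, while Fa2h adds the hydroxyl group that most myelin galactolipids bear. Erbb3 is a receptor for neuregulins of axons, and Bcas1 marks oligodendrocytes in early myelination. In tissue RNA, fewer oligodendrocytes and less RNA per oligodendrocyte cannot be told apart.

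Probe totals per mouse ran from 1050334 to 1116704 in TPPU-treated 5xFAD mice and from 1074162 to 1220728 in vehicle-treated 5xFAD mice. In non-transgenic mice they ran from 1156713 to 1314362, above all mice of the TPPU group. The summed level of 15 microglial genes was 11818 to 36210 in TPPU-treated 5xFAD mice, 31540 to 57007 in those on vehicle and 10133 to 13038 in their non-transgenic littermates. The summed level of 18 neuronal genes was 99975 to 132720, 93561 to 119670 and 106060 to 117507 in the same groups. Of 16 genes listed as markers of hippocampal neurons, 3 were in the table (Gria1, Grin2b and Bdnf). These are too few to check the dissection by that list. Slc17a6, a gene of the neuronal list, had 528 to 4587 normalized counts in TPPU-treated 5xFAD mice. It had 1058 to 3186 in vehicle-treated 5xFAD mice and 474 to 2719 in non-transgenic mice. Whether this spread follows the dissection was not tested. Ttr, a transcript of the choroid plexus, reached 4270 normalized counts in vehicle-treated 5xFAD mouse 1 and 16461 in non-transgenic mouse 4, against 77.1 to 284 in the other 10 mice. Although the labels call all mice male, the Y-linked Uty was at 15.2 to 33.5 normalized counts in 6 mice and at 366 to 518 in the other 6, with 2 and 2 of each kind in every group. Results for the 7 genes are therefore also given without the mice with high Ttr and within each kind of mouse.

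The 2 transcription factors were lower, on average, in both 5xFAD groups than in non-transgenic mice, but the mice of all groups overlapped. Sox10 had 589, 569, 732 and 453 normalized counts in TPPU-treated 5xFAD mice 1 to 4, 351, 627, 509 and 647 in vehicle-treated 5xFAD mice 1 to 4, and 913, 645, 581 and 762 in non-transgenic mice 1 to 4. The lowest Sox10 value belonged to vehicle-treated 5xFAD mouse 1 and the highest to non-transgenic mouse 1, a 2.60-fold span. Sox10 averaged 586 ± 114 in the TPPU group, 533 ± 136 in the vehicle-treated 5xFAD group and 725 ± 146 in the non-transgenic group (SD, n = 4 each).

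Myrf had 1497, 1486, 1965 and 1380.5 normalized counts in TPPU-treated 5xFAD mice 1 to 4, 1384, 1764, 1312 and 1592 in vehicle-treated 5xFAD mice 1 to 4, and 2204, 1823, 1410.3 and 1993 in non-transgenic mice 1 to 4. Myrf spanned 1.68-fold over the 12 mice, less than 5 of the other 6 genes, and its lowest mouse was vehicle-treated 5xFAD mouse 3. Myrf averaged 1582 ± 261 in the TPPU group, 1513 ± 205 in the vehicle-treated 5xFAD group and 1858 ± 337 in the non-transgenic group (SD, n = 4 each).

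Erbb3 stood lowest by far in vehicle-treated 5xFAD mouse 1. It had 272, 303, 438 and 260.4 normalized counts in TPPU-treated 5xFAD mice 1 to 4, 159, 374, 265 and 338 in vehicle-treated 5xFAD mice 1 to 4, and 459.9, 392, 303 and 366 in non-transgenic mice 1 to 4. The other 3 vehicle-treated 5xFAD mice lay within the range of the TPPU-treated 5xFAD mice, and 2 of them within that of the non-transgenic mice. Erbb3 averaged 318 ± 81.6 in the TPPU group, 284 ± 95.1 in the vehicle-treated 5xFAD group and 380.3 ± 65.0 in the non-transgenic group (SD, n = 4 each).

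Bcas1 had 1874, 1878, 2563 and 1814 normalized counts in TPPU-treated 5xFAD mice 1 to 4, 1015, 2089, 2033 and 2416 in vehicle-treated 5xFAD mice 1 to 4, and 3148, 2284, 2142 and 2679.7 in non-transgenic mice 1 to 4. Vehicle-treated 5xFAD mouse 1 was again the lowest of all, and among the TPPU-treated 5xFAD mice mouse 3 stood apart above 3 mice that differed little. Bcas1 averaged 2032 ± 355 in the TPPU group, 1888 ± 606 in the vehicle-treated 5xFAD group and 2563 ± 451 in the non-transgenic group (SD, n = 4 each).

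**Figure D1:**
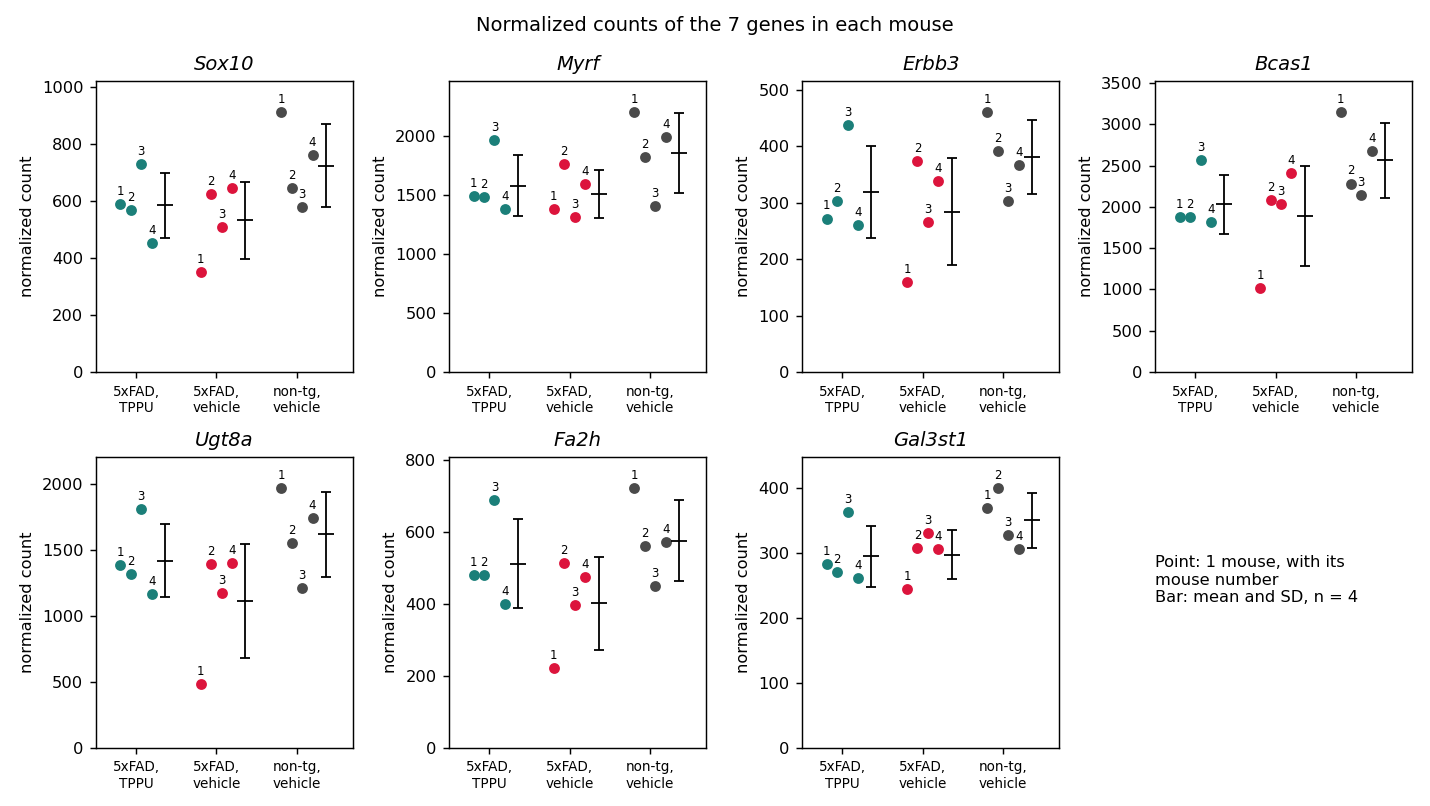
Normalized counts (vertical axes, linear, from 0) of the 7 genes in each mouse, with TPPU-treated 5xFAD mice, vehicle-treated 5xFAD mice and non-transgenic mice from left to right. Each point is 1 mouse with its number and each bar the mean and SD of 4 mice. Vehicle-treated 5xFAD mouse 1 is the lowest mouse for 6 of the 7 genes, and the groups overlap for all 7.

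Among the 3 galactolipid enzymes, the 2 that act on consecutive steps were the least alike over the mice (r = 0.68 and Spearman's rho = 0.61 after group means were subtracted, n = 12), while Ugt8a and Fa2h were the most alike (r = 0.97, rho = 0.94). Ugt8a, the ceramide galactosyltransferase, showed the widest span of the 7 genes, and Gal3st1, the sulfotransferase that turns galactosylceramide into sulfatide, the narrowest. The RefSeq promoter table (build GRCm38.p6) held these 2 of the 7 genes, and the 250 bases before their starts are shown because these 2 genes differ most in their span over the mice. Ugt8a has 1 start, at chr3:125938653-125938902 on the minus strand, and the first of 3 starts of Gal3st1 is shown, at chr11:3983386-3983635 on the plus strand. Capitals mark GGGCGG (the GC box) in Ugt8a and CCAAT (the CCAAT box), read here on the other strand, in Gal3st1.
Ugt8a: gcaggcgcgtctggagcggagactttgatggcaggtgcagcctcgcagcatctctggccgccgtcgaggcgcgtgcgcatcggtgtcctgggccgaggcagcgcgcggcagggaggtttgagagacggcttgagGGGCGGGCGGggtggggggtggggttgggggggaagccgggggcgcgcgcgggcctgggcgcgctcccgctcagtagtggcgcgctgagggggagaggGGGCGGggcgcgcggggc
Gal3st1: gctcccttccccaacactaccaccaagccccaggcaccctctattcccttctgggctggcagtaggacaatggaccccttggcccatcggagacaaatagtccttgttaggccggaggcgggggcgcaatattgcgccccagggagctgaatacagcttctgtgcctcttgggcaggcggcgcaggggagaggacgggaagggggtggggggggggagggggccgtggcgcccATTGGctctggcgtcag
The Ugt8a window was 76.8% G or C and the Gal3st1 window 65.6%, against a median of 52.4% over 32851 promoters. GGGCGG occurred at 3 places in the Ugt8a window, 2 of them overlapping, and in 32.7% of all promoter windows of that length on either strand. CCAAT occurred before 2 of the 3 Gal3st1 starts, whose windows overlap and hold the same single site, and in 33.8% of all windows. Both motifs were chosen after the sequences were seen. The SOX motifs ACAAAG and AACAAT (in 16.5% and 9.42% of all windows), the MYRF motif CTGGNAC (in 16.1%) and the E-box CAGCTG (in 13.0%) were not in any of these windows on either strand, overlaps between motifs allowed.

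Ugt8a had 1383, 1316, 1804 and 1164 normalized counts in TPPU-treated 5xFAD mice 1 to 4, 482, 1388, 1168 and 1399 in vehicle-treated 5xFAD mice 1 to 4, and 1967, 1547, 1209 and 1741 in non-transgenic mice 1 to 4. Its highest mouse, non-transgenic mouse 1, stood 4.08-fold above its lowest, vehicle-treated 5xFAD mouse 1. Ugt8a averaged 1417 ± 274 in the TPPU group, 1109 ± 431 in the vehicle-treated 5xFAD group and 1616 ± 321 in the non-transgenic group (SD, n = 4 each).

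Fa2h, the fatty acid 2-hydroxylase, ordered the mice much as Ugt8a did. It had 479.5, 478, 688 and 398 normalized counts in TPPU-treated 5xFAD mice 1 to 4, 222, 513, 395 and 475 in vehicle-treated 5xFAD mice 1 to 4, and 721, 559, 448 and 569.7 in non-transgenic mice 1 to 4. TPPU-treated 5xFAD mouse 3 lay within the upper part of the non-transgenic range, and vehicle-treated 5xFAD mouse 1 lay below every other mouse. Fa2h averaged 511 ± 124 in the TPPU group, 401 ± 129 in the vehicle-treated 5xFAD group and 574 ± 112 in the non-transgenic group (SD, n = 4 each).

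Gal3st1 had 283, 270.0, 363 and 261 normalized counts in TPPU-treated 5xFAD mice 1 to 4, 244, 307, 331 and 306 in vehicle-treated 5xFAD mice 1 to 4, and 368, 400.0, 327 and 305 in non-transgenic mice 1 to 4. It spanned 1.64-fold over the 12 mice, and unlike the other 6 genes it was highest in non-transgenic mouse 2. Gal3st1 averaged 295 ± 46.7 in the TPPU group, 297 ± 37.3 in the vehicle-treated 5xFAD group and 350.2 ± 42.3 in the non-transgenic group (SD, n = 4 each).

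The order of the group means was the same for 6 genes, with non-transgenic mice highest, TPPU-treated 5xFAD mice next and vehicle-treated 5xFAD mice lowest, while for Gal3st1 the 2 5xFAD groups lay 1.01-fold apart. On the deposited scale no neighbouring groups in that order passed limma's test for any of the 7 genes, although some means lay further apart than the SD of either group, as for Bcas1 between the TPPU and non-transgenic groups. None of the 7 genes separated 2 groups without overlap in any of the 3 comparisons. Over the panel, 21.7% of tested genes did so between vehicle-treated 5xFAD and non-transgenic mice, 150 of them higher and 1 lower in 5xFAD mice. Between TPPU-treated and vehicle-treated 5xFAD mice 4.89% did so, 4 higher and 30 lower with TPPU. Between TPPU-treated 5xFAD and non-transgenic mice 7.05% did so, 43 higher and 6 lower in the TPPU group.

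The first comparison asked what the 5xFAD transgenes alone went with. All 7 genes were lower on average in vehicle-treated 5xFAD mice than in non-transgenic mice, while most of the panel was higher, but on the deposited scale none of the 7 passed the test. The changes below are in log2(normalized count + 1) and were tested with limma across all 695 genes, with Benjamini-Hochberg adjusted p under 0.05 as the call. Ugt8a differed by -0.64 (95% interval -1.30 to 0.02, adjusted p = 0.188) and Fa2h by -0.56 (-1.13 to -0.0037, adjusted p = 0.168). Bcas1 differed by -0.50 (adjusted p = 0.195), Erbb3 by -0.48 (adjusted p = 0.25) and Sox10 by -0.46 (adjusted p = 0.176). Myrf, at -0.29 (adjusted p = 0.241), and Gal3st1, at -0.24 (adjusted p = 0.303), had the smallest differences. Thus 0 of 7 were called, against 18.7% of the panel, where 130 genes were called higher and 0 lower. At an unadjusted p under 0.05 stood 1 of the 7 (Fa2h, lower) and 202 of 695 panel genes (195 higher, 7 lower). The 7 genes had a median change of -0.48 and 7 of 7 lay below 0, while the tested genes had a median of 0.13 and 193 of 695 lay below 0.

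How these genes stood depended on how mice were set against each other. The median log2 value of the tested genes was itself 0.28 higher in vehicle-treated 5xFAD than in non-transgenic mice, with mouse medians of 377 to 481 normalized counts against 331 to 361. Centring each mouse on its median called all 7 genes lower, where 27.3% of the panel was called (102 higher and 88 lower, in place of 130 and 0). On that scale Ugt8a fell by 0.92 (adjusted p = 0.025), Fa2h by 0.85 (adjusted p = 0.0171), Bcas1 by 0.78 (adjusted p = 0.016) and Erbb3 by 0.76 (adjusted p = 0.0284). Sox10 fell by 0.75 (adjusted p = 0.0153), Myrf by 0.57 (adjusted p = 0.0175) and Gal3st1 by 0.52 (adjusted p = 0.00531). Gal3st1 thus had the smallest change and the smallest p of the 7. Quantile normalization also called all 7 lower, with changes from -0.95 for Ugt8a to -0.50 for Myrf, where 26.5% of the panel was called (80 higher and 104 lower). The panel was chosen for neuroinflammation and 130 of its genes were called higher on the deposited scale, so its median is no neutral standard. Which scale is nearer to the RNA content of the tissue was not tested, and the 10 housekeeping genes that set the deposited scale are not among the values used here.

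**Figure D2:**
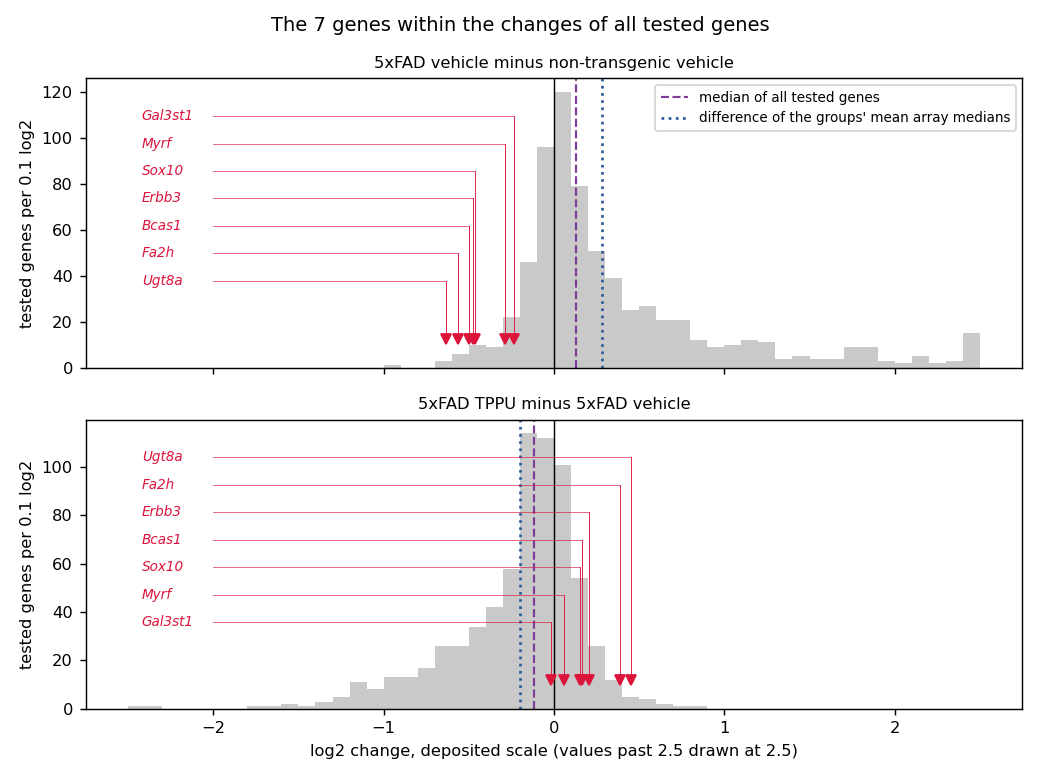
Number of tested genes (vertical axes) by log2 change on the deposited scale (horizontal axes), for vehicle-treated 5xFAD minus non-transgenic mice above and TPPU-treated minus vehicle-treated 5xFAD mice below. Triangles mark the 7 genes, the dashed line the median of 695 tested genes and the dotted line the difference of the groups' mean array medians. In the upper panel all 7 genes lie left of 0, from -0.64 to -0.24, while the tested genes have a median of 0.13.

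Vehicle-treated 5xFAD mouse 1, 1 of the 2 mice with high Ttr, carried much of the size of this difference. Without it the deposited-scale differences were -0.28 for Ugt8a, -0.30 for Fa2h, -0.22 for Bcas1, -0.22 for Erbb3, -0.27 for Sox10, -0.25 for Myrf and -0.15 for Gal3st1, and again none was called by limma. Without both mice with high Ttr they lay between -0.30 for Fa2h and -0.20 for Bcas1, and none was called. On the median-centred scale without that mouse, 6 of the 7 genes remained called, where 155 of 695 panel genes (22.3%) were called, with differences of -0.64 for Fa2h to -0.48 for Gal3st1, and Erbb3 was at -0.55 (adjusted p = 0.0635). Leaving out each of the 12 mice in turn on that scale called 4 to 7 of the genes, where 16% to 32.1% of the panel was called, and Sox10, Myrf, Bcas1 and Gal3st1 were called every time. Erbb3, Ugt8a and Fa2h all dropped out when vehicle-treated 5xFAD mouse 3 was left out, the fit with the fewest panel calls (111, of which 23 were lower). Among mice with high Y-linked values the 7 genes had a median difference of -0.53, and among mice with low values -0.50, each between 2 and 2 mice. The mice with low values include vehicle-treated 5xFAD mouse 1, so their median rests partly on it. Single genes differed between the 2 kinds of mice. Myrf stood at -0.54 with high and -0.04 with low values, and Gal3st1 at -0.07 and -0.40.

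The second comparison asked whether TPPU changed these genes in 5xFAD mice. No gene of the panel passed the test (0 of 695, 0% called), so neither did any of the 7. At an unadjusted limma p under 0.05 stood 126 panel genes (7 higher, 119 lower), none of the 7 among them, and limma with voom weights also called 0. The enzymes Ugt8a and Fa2h had the largest differences, Ugt8a at 0.45 (95% interval -0.21 to 1.11, adjusted p = 0.447) and Fa2h at 0.39 (-0.17 to 0.95, adjusted p = 0.441). The interval of Ugt8a includes no change and reaches 2.16-fold, so these 8 mice leave a wide range of sizes possible. Erbb3 differed by 0.20 (adjusted p = 0.692), Bcas1 by 0.16 (adjusted p = 0.739), Sox10 by 0.15 (adjusted p = 0.722), Myrf by 0.06 (adjusted p = 0.847) and Gal3st1 by -0.02 (adjusted p = 0.959). Only Gal3st1 of the 7 lay below 0, against 489 of 695 tested genes, and the medians were 0.16 and -0.12.

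Several signs among these small differences turned on single mice. Without vehicle-treated 5xFAD mouse 1 the differences became -0.03 for Sox10, -0.05 for Erbb3 and -0.11 for Bcas1, and 0.09 for Ugt8a and 0.13 for Fa2h. Among mice with high Y-linked values the 7 genes had a median difference of -0.15, and among mice with low values, which include vehicle-treated 5xFAD mouse 1 and TPPU-treated 5xFAD mouse 3, of 0.58, each between 2 and 2 mice. Median centring gave larger differences, of 0.65 for Ugt8a (adjusted p = 0.199) and 0.59 for Fa2h (adjusted p = 0.183), and turned Gal3st1 to 0.19 (adjusted p = 0.302), with none of the 7 called. Without TPPU-treated 5xFAD mouse 3, which had the highest value of its group for all 7 genes, 39 panel genes were called, all lower, and still none of the 7.

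**Figure D3:**
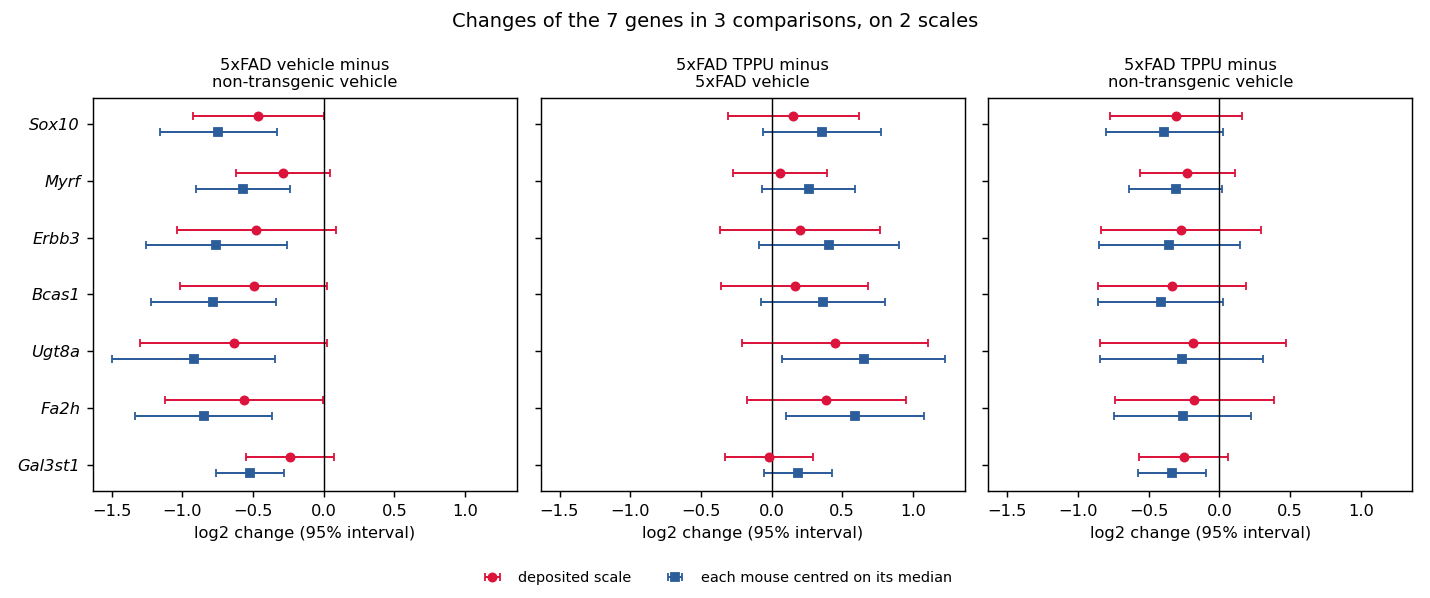
Log2 changes of the 7 genes (horizontal axes, with 95% intervals from limma) in 3 comparisons, on the deposited scale (circles) and after each mouse was centred on its median (squares). In the left panel, vehicle-treated 5xFAD minus non-transgenic mice, the intervals of all 7 genes lie below 0 on the centred scale, and 1 of 7, that of Fa2h, does so on the deposited scale.

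Set against non-transgenic mice, the TPPU-treated 5xFAD mice were lower on average for all 7 genes, and none passed the test. The differences were -0.33 for Bcas1, -0.31 for Sox10, -0.27 for Erbb3, -0.25 for Gal3st1, -0.23 for Myrf, -0.19 for Ugt8a and -0.18 for Fa2h, with adjusted p from 0.483 to 0.848 by limma. None of the 7 was called, nor was any panel gene (0%), while 102 stood at an unadjusted p under 0.05 (95 higher, 7 lower) and voom weights called 0. The median of the 7 was -0.25 against 0.06 for the tested genes. Both of these comparisons share their mice with the first, so their values are not independent: Ugt8a stood at -0.64, 0.45 and -0.19 in the 3 comparisons, and Gal3st1 at -0.24, -0.02 and -0.25. After median centring Gal3st1 had the smallest adjusted p of the 7 (-0.34, adjusted p = 0.13) and none was called. Among mice with high Y-linked values the median of the 7 was -0.55, and among mice with low values 0.08.

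Mouse by mouse the 7 genes moved largely together, though not in every mouse. In non-transgenic mouse 2, Gal3st1 was at 0.20 and Bcas1 at -0.15 log2 from their non-transgenic means. All 7 were below their non-transgenic mean in TPPU-treated 5xFAD mice 1, 2 and 4 and in each of the 4 vehicle-treated 5xFAD mice, and none was in TPPU-treated 5xFAD mouse 3. Within the TPPU group mouse 3 was the highest and mouse 4 the lowest for all 7 genes. Median distances of the 7 genes from their non-transgenic means were -0.29, -0.31, 0.10 and -0.48 log2 in TPPU-treated 5xFAD mice 1 to 4, -1.24, -0.18, -0.48 and -0.18 in vehicle-treated 5xFAD mice 1 to 4, and 0.31, -0.02, -0.31 and 0.08 in non-transgenic mice 1 to 4. For 19 other oligodendrocyte and myelin genes the same medians were -0.28, -0.27, 0.17 and -0.43, then -0.97, -0.03, -0.22 and -0.16, then 0.24, 0.01, -0.25 and 0.02. Mice that were low for the 7 genes were thus low for other genes of the same cells.

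**Figure D4:**
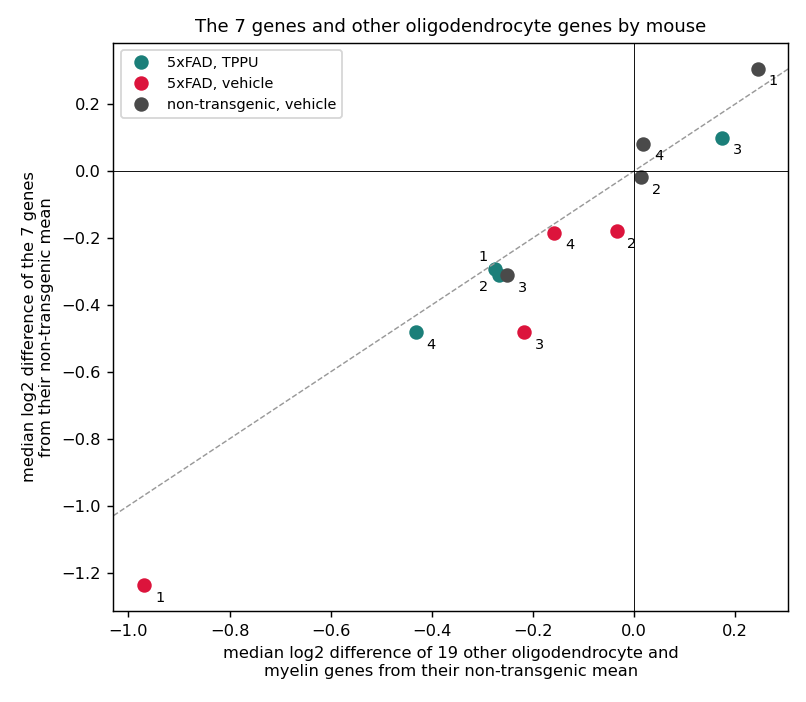
Each mouse by the median log2 difference from the non-transgenic mean of 19 other oligodendrocyte and myelin genes (horizontal axis) and of the 7 genes (vertical axis), with equal values on the dashed line. Vehicle-treated 5xFAD mouse 1 lies far from the other 11 mice, at -0.97 and -1.24, and TPPU-treated 5xFAD mouse 3, at 0.17 and 0.10, is the only 5xFAD mouse above 0 on both axes.

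After each group mean was subtracted, the 21 pairs among the 7 genes had Pearson correlations of 0.47 to 0.98 over the 12 mice, with a median of 0.80. The median was 0.90 without vehicle-treated 5xFAD mouse 1. With the 19 other oligodendrocyte and myelin genes the median was 0.81 over 133 pairs, much as among the 7, and with the remaining tested genes it was 0.25. All such values share the mice, their RNA and their scaling, and they describe likeness only. Fa2h, Ugt8a, Sox10, Erbb3 and Bcas1 had median correlations of 0.92 to 0.96 with the other 6 genes, Myrf 0.71 and Gal3st1 0.68. The gene most like Fa2h was Tmem88b (r = 0.99, Spearman's rho = 0.95), followed by Mag and Mog, which encode myelin membrane proteins. Sox10 and Erbb3 were most like Tmem88b (r = 0.97 and 0.98), and Myrf was most like Mal, a membrane protein of myelin (r = 0.92). Mag and Enpp6 were among the 3 genes closest to Ugt8a (r = 0.97 each), and Enpp6 and Top2a among the 3 closest to Bcas1 (r = 0.94 each). Top2a, and Slc44a1 among the 3 genes closest to Myrf (r = 0.88), were not on the list of myelin genes. Gal3st1 was the exception in that none of its 3 closest genes, Plxdc2 (r = 0.90), Fabp5 (r = 0.90) and Cd83 (r = 0.89), was on that list. Without the 2 mice farthest from the median, these 3 correlations were 0.82, 0.83 and 0.83, and that of Fa2h with Tmem88b was 0.99.

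Taking the mean of the 19 other oligodendrocyte and myelin genes from every gene in each mouse asked whether any of the 7 departed from its cell type's genes. None of the 7 was called by limma in any comparison on that scale. Vehicle-treated 5xFAD minus non-transgenic mice gave -0.32 for Ugt8a (95% interval -0.70 to 0.07, adjusted p = 0.184) and -0.24 for Fa2h (adjusted p = 0.229). The other 5 genes had values from -0.18 to 0.08. In that comparison 30.5% of the panel was called, 212 genes higher and 0 lower, with a panel median of 0.45. TPPU-treated minus vehicle-treated 5xFAD mice gave 0.32 for Ugt8a (adjusted p = 0.362), 0.26 for Fa2h (adjusted p = 0.439) and -0.15 to 0.07 for the others, where 0.288% of the panel was called (2 genes lower, Ctse and C1qb, named after their values were seen). TPPU-treated 5xFAD minus non-transgenic mice gave 0.01 for both Ugt8a and Fa2h and -0.14 to -0.03 for the others, where 6.47% was called (45 higher, 0 lower).

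On the deposited scale the 19 other oligodendrocyte and myelin genes showed the same lack of calls. Calls among these 19 after median centring or quantile normalization were not counted. In vehicle-treated 5xFAD against non-transgenic mice, 18 of 19 were below 0 with a median of -0.30, and 0 were called, against 18.7% of the panel. Their smallest adjusted p was that of Mal, which averaged 5340 ± 1218 normalized counts in the vehicle-treated 5xFAD group and 7613 ± 1555 in the non-transgenic group (SD, n = 4 each; -0.52, adjusted p = 0.0793). Tmem88b differed by -0.51 (adjusted p = 0.168), and Gsn, an actin-severing protein gene also active outside oligodendrocytes, was the 1 gene above 0, at 0.31 (adjusted p = 0.163). With TPPU, 4 of 19 lay below 0 with a median of 0.13, and again 0 were called, as over the panel (0%). Ninj2 stood at 0.69 (adjusted p = 0.282), on 56.3 ± 19.5 normalized counts in TPPU-treated and 34.6 ± 12.7 in vehicle-treated 5xFAD mice. Gsn stood at -0.34 (adjusted p = 0.222).

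Other genes of the same pathways were few on this panel, and their changes are given on the deposited scale. Of 10 markers of oligodendrocyte progenitors 0 were in the table, so these values hold no measure of progenitors. Of 25 other transcription and chromatin regulators of the lineage 7 were tested and 0 called in vehicle-treated 5xFAD against non-transgenic mice, with changes from -0.15 for Hdac2, a histone deacetylase, to 0.30 for Sox4, and Sox9 was at 0.29 (adjusted p = 0.227). Of 12 other ErbB receptors and ligands 2 were tested, Egfr at 0.23 (adjusted p = 0.469) and its ligand gene Tgfa at 0.07 (adjusted p = 0.854). Of 33 other genes of sphingolipid and galactolipid metabolism 2 were tested and 0 called, with Sphk1, a sphingosine kinase, at 0.01 (adjusted p = 0.99). With TPPU 0 genes of these 3 lists were called, Hdac2 stood at 0.18, Egfr at -0.17 and Sphk1 at -0.52, the last on 26.3 ± 8.51 normalized counts in TPPU-treated and 38.7 ± 14.1 in vehicle-treated 5xFAD mice.

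On the deposited scale, genes of other cells moved beside these differences. All 15 microglial genes were higher in vehicle-treated 5xFAD than in non-transgenic mice, with a median change of 1.69. Of these, 13 were called, against 18.7% of the panel, and 9 of 9 tested genes of plaque-associated microglia were called higher. All 6 astrocyte genes were higher and 1 was called by limma, the glutamate transporter Slc1a3 (0.36, adjusted p = 0.0282). None of 18 neuronal or 8 endothelial and perivascular genes was called. The part of this rise, and of the 2 mice with high Ttr, in the values of the 7 genes was not tested.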

How the data were processed

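The deposited table holds 1 signal value per gene and mouse, which per the labels is a probe count that the authors scaled to 10 housekeeping genes through their geometric mean, with software and background handling not given in the sources used here. Divided by 1 factor per mouse, 100% of the values came within 0.01 of a whole number, and these factors were 1.03 to 1.09 in the TPPU group, 0.946 to 1.10 in the vehicle-treated 5xFAD group and 0.871 to 0.993 in the non-transgenic group.

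Values were tested as log2(normalized count + 1) for 695 genes averaging 20 or more, in 1 limma 3.58.1 model of all 12 mice (R 4.3.3, lmFit and eBayes with trend, 9 residual degrees of freedom), adjusted over all tested genes by Benjamini-Hochberg. The labels number mice 1 to 4 in each group and give no shared cage, litter or batch. Here n counts mice, and p-values set each group difference against the spread between mice within groups. The 7 genes and all gene lists were chosen with earlier results of these data known. Besides the 7 genes, named genes are the 3 closest in likeness to each and up to 3 per list with the smallest p; a few genes this rule takes are not reported here, and other names were chosen after seeing their values. All 756 symbols matched mouse gene names, 7 of them as synonyms. The fitting procedure was tested on simulated data. Other pseudocounts, filters, scalings, variance models, blocks and fits without each mouse were also tried. Python 3.11.15 with matplotlib 3.10.9 drew the figures.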

Additional observations from a re-analysis of the deposited data

Results flagged for a closer look

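Bcas1 in TPPU-treated 5xFAD mouse 3, at 2563 normalized counts, stood far above the other 3 mice of its group, at 1814, 1874 and 1878. Its gap to the nearest of them was 0.914 of the group's whole range. This gap is above Dixon's 95% critical value for 4 samples, which about 1 in 20 independent groups would pass by chance. It was the 1 such value among 21 sets of 4 mice (7 genes in 3 groups), and these sets share mice and genes that vary together, so they are not independent. The same mouse was the highest of its group for all 7 genes.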

How the results depend on the processing

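The 7 genes kept a negative sign in vehicle-treated 5xFAD minus non-transgenic mice under every setting run on the deposited scale or rescaled values, but the count called was 0 on the deposited scale and 7 after median centring and 7 after quantile normalization. Gal3st1 in TPPU-treated minus vehicle-treated 5xFAD mice turned to 0.19 and 0.25 under these 2 scalings. Both were applied only to values not already set against the other oligodendrocyte genes. Whether the mouse numbers pair the mice was not tested. Same-numbered mice correlated from -0.37 to 0.39 over 12 pairs (median 0.09), 6 of them over 0.1. Mice of different numbers and groups had a median of -0.001 over 36 pairs, 10 of them over 0.1. Of 12 mice, 5 were closest to a mouse of their own number. With the mouse number as a block, 0 of the 7 genes and 125 panel genes were called in vehicle-treated 5xFAD minus non-transgenic mice, and 0 and 0 in both other comparisons.

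Leaving out 1 mouse at a time, the median change of the 7 genes ran from -0.58 to -0.25 in vehicle-treated 5xFAD minus non-transgenic mice, from -0.03 to 0.31 in TPPU-treated minus vehicle-treated 5xFAD mice and from -0.36 to -0.18 in TPPU-treated 5xFAD minus non-transgenic mice, with 0 of the 7 called each time. Panel calls ran from 97 to 148, from 0 to 39 and from 0 to 60 in the same order. The 39 came without TPPU-treated 5xFAD mouse 3, the 60 without TPPU-treated 5xFAD mouse 2, and 1 each in the TPPU comparison without vehicle-treated mouse 2 and TPPU-treated mouse 2. In TPPU-treated minus vehicle-treated 5xFAD mice, Sox10 ran from -0.033 to 0.27, Myrf from -0.048 to 0.14, Erbb3 from -0.051 to 0.36, Bcas1 from -0.11 to 0.31 and Gal3st1 from -0.12 to 0.039. Without both mice with high Ttr, Sox10, Erbb3 and Bcas1 stood at -0.033, -0.051 and -0.11 there.

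Relative to the other oligodendrocyte genes the small values changed sign more often. In vehicle-treated 5xFAD minus non-transgenic mice Myrf ran from -0.12 to 0.13 and Gal3st1 from -0.019 to 0.17, and without both mice with high Ttr they stood at -0.093 and -0.095. In TPPU-treated minus vehicle-treated 5xFAD mice Sox10 ran from -0.016 to 0.071, Myrf from -0.17 to 0.087 and Bcas1 from -0.046 to 0.12, and without the high-Ttr mice Myrf was at 0.087 and Bcas1 at -0.046. In TPPU-treated 5xFAD minus non-transgenic mice Ugt8a ran from -0.046 to 0.037, Fa2h from -0.018 to 0.053 and Gal3st1 from -0.14 to 0.015, and Myrf was at 0.0047 with a minimum mean of 50. The cause of these sign changes was not tested.

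Voom weights, and median centring together with leaving out 1 mouse, were chosen after seeing the data; voom called 128 panel genes and 0 of the 7 in vehicle-treated 5xFAD minus non-transgenic mice. The planned edgeR and DESeq2 fits were not run, since the deposited values are normalized, although each is close to a whole multiple of its mouse's factor.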
